A study of Homo sapiens with 12 samples.

Results

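The 34 genes described here are ATF4 and genes of the amino acid response, listed by symbol and found by exact name in the deposited table of 58735 genes, where each of the 34 occurred once. The list holds 9 transcription factors and regulators, 6 enzymes of serine, glycine and one-carbon metabolism, 4 enzymes of asparagine, proline and transsulfuration metabolism, 7 amino acid transporters, 3 secreted factors and 5 other effectors. Poly-A RNA came from 2 wild-type human hepatocellular carcinoma lines, Huh7, whose cells keep many hepatocyte genes, and HLF. Each line was grown with Inject-Embed (a small suspension injected into set Matrigel), with Mix-Embed (cells mixed with Matrigel and laid over a gel) and in 2D, with 2 biological replicates a group and 12 libraries in all. All cells had DMEM with serum. Inject-Embed wells received 4000 Huh7 or 2000 HLF cells and Mix-Embed wells 20000 Huh7 or 10000 HLF cells, harvested on days 6 to 8. For 2D, cells near 90% confluence were taken on day 2, so that gel, cell number and days in culture cannot be told apart in any comparison with 2D. In Matrigel, the number of seeded cells also differed between the lines and cannot be told apart from line there. The p-values measure the spread between these libraries, with the spread of each gene drawn toward a trend over all tested genes. Nothing in the labels says how the replicate cultures were separated.

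ATF4 is a basic leucine zipper transcription factor whose mRNA is translated better when the initiation factor eIF2 is phosphorylated, as happens when a kinase such as GCN2 senses uncharged tRNA or PERK senses unfolded protein. Much of its control is therefore at translation, which mRNA levels do not show. With C/EBP partners it binds amino acid response elements and raises genes that take up amino acids, make serine, glycine and asparagine, and charge tRNA, while TRIB3 and CHOP (the product of DDIT3) act back on the pathway. In liver, FGF21 and GDF15 carry the signal out of the cell as hormones.

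RefSeq promoter windows (GRCh38.p14, 250 bases before to 50 after the start of transcription) were matched by symbol for 28 of the 34 genes, and were missing for ALDH1L2, EIF4EBP1, NUPR1, PSPH, PYCR1 and SHMT2. The letters TGATGNAA, the core of the amino acid response element with N for any base, were searched on both strands. They occurred in 6 of the 28 windows (21.4%), those of ASNS, ATF3, CHAC1, FGF21, SLC3A2 and SLC7A1, against 1003 of 27305 windows of all genes (3.67%). Of the windows of genes that were tested here, 1.91% held them. The stretches below show the match in capitals, 5′ to 3′ in the direction of the gene. ASNS, ATF3 and CHAC1 are shown from the first base of the window to the base before the start. SLC7A1, whose match lies after its start, is shown as 30 bases.
ASNS: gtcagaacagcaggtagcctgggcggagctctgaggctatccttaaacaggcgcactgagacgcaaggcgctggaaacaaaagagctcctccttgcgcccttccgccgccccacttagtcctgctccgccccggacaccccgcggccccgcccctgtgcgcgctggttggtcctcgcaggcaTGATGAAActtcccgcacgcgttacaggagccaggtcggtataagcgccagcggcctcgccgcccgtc
ATF3: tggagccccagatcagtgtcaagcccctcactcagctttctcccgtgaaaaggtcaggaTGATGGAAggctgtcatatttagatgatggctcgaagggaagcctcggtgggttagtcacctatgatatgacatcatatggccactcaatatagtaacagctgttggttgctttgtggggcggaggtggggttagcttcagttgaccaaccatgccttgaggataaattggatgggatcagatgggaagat
CHAC1: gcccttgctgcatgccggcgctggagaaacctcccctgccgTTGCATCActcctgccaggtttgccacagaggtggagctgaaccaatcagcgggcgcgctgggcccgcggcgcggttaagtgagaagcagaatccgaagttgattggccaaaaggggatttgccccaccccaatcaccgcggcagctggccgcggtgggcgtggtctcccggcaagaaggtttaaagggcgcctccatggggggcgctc
SLC7A1: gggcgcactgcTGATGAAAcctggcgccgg
These lie at chr7:97872409-97872658 on the minus strand for ASNS, chr1:212565157-212565406 on the plus strand for ATF3, chr15:40953221-40953470 on the plus strand for CHAC1 and chr13:29595663-29595692 on the minus strand for SLC7A1. The match read in the forward direction in ASNS, ATF3 and SLC7A1 and in reverse in CHAC1. A match is a description of the letters and not evidence of a bound site.

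Library totals ran from 12325877 to 16041906 counts. The 9 hepatocyte markers summed to 35671 to 42754 CPM in Huh7 from Matrigel and 43399 to 45513 CPM in Huh7 2D. For the marker sums, CPM is a count relative to the unscaled library total. For the genes described below, it is a count relative to the TMM-scaled library total. In HLF they summed to 34.6 to 65.6 CPM in Matrigel and 174 to 176 CPM in 2D, with 2 to 4 of the 9 at 0. The 7 mesenchymal markers summed to 64.3 to 78 CPM in Huh7 from Matrigel and 121 to 134 CPM in Huh7 2D, and to 2862 to 3130 CPM in HLF from Matrigel and 2204 to 2213 CPM in HLF 2D. Of 4 leukocyte markers 1 was detected at 1 CPM or more in Huh7 and 0 in HLF, and of 4 endothelial markers at most 1 in any group. The leukocyte markers summed to 223 to 313 CPM in Huh7 and 0 to 0.47 CPM in HLF. The endothelial markers summed to 9.31 to 12.4 CPM in Huh7 and 0.524 to 1.85 CPM in HLF. The 5 fibroblast markers summed to 132 to 146 CPM in Huh7 from Matrigel and 173 to 180 CPM in Huh7 2D, and to 161 to 174 CPM in HLF from Matrigel and 196 to 199 CPM in HLF 2D. Mitochondrial ribosomal RNA took 0.47% to 0.6% of the counts in the 8 libraries from Matrigel, against 0.29% to 0.31% in the 4 from 2D. Protein-coding genes took 97.07% to 97.44% in Matrigel and 97.63% to 97.66% in 2D. These shares and marker levels moved with culture in both lines, and their part in the results below was not tested. The 34 genes together took 0.373% to 0.381% of the counts in Huh7 from Matrigel and 0.381% to 0.388% in Huh7 2D, and 0.271% to 0.286% in HLF from Matrigel against 0.348% to 0.351% in HLF 2D.

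In HLF, the genes that differed between Matrigel and 2D were all lower in Matrigel, and in Huh7 they moved both ways. Of the 34 genes, 33 passed the filter on low counts and were tested, and FGF21 was not. In HLF Inject-Embed against 2D, 0 genes were higher and 22 were lower at an edgeR quasi-likelihood adjusted p under 0.05, where 9.09% of all 19342 tested genes were higher and 8.86% lower. In HLF Mix-Embed against 2D, 0 were higher and 20 lower, where 14.4% of all tested genes were higher and 14.6% lower. In Huh7 Inject-Embed against 2D, 5 were higher and 14 lower, with 13.2% of all tested genes higher and 16.7% lower. In Huh7 Mix-Embed against 2D, 3 were higher and 5 lower, with 11.2% higher and 10.6% lower among all tested genes. The median log2 fold change of the 33 genes was -0.43 and -0.37 in HLF Inject-Embed and Mix-Embed, and -0.14 and 0.03 in Huh7 Inject-Embed and Mix-Embed. That of all tested genes lay between -0.01 and 0.00 in these 4 comparisons. In each line, Inject-Embed and Mix-Embed were set against the same 2D libraries.

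**Figure D1:**
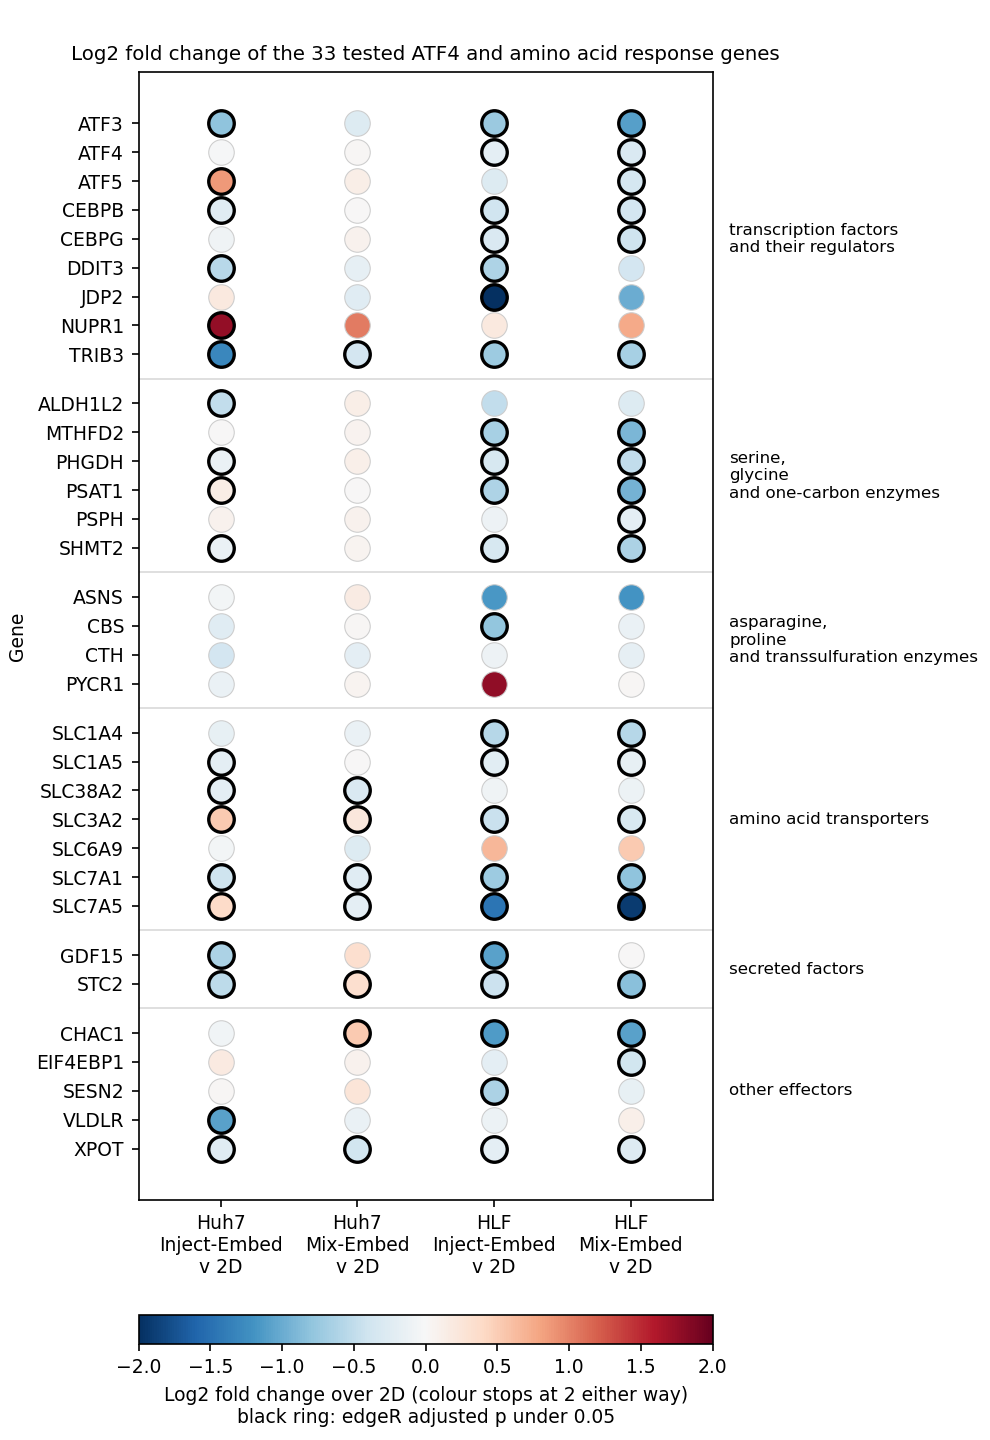
Log2 fold change of each of the 33 tested genes (rows, by role) in the 4 comparisons of a Matrigel culture with 2D (columns); colour gives the fold change and a black ring marks an adjusted p under 0.05. In the HLF columns every ringed gene is lower in Matrigel, 22 for Inject-Embed and 20 for Mix-Embed, while the Huh7 columns hold ringed genes of both signs.

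Of the 33 genes, ATF5, CHAC1, PSAT1, SLC3A2, SLC7A5 and STC2 were higher in at least 1 of the 4 comparisons with 2D and lower in another, and ASNS, CTH, PYCR1 and SLC6A9 passed the test in none. For ATF5, CHAC1 and PSAT1, the call in 1 of these directions was lost without some library, as given below. In these bulk libraries, fewer cells expressing a gene and less of its RNA per cell cannot be told apart.

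Among the regulators, ATF4 itself moved little. Its level was 440 and 444 CPM in Huh7 Inject-Embed, 456 and 459 CPM in Huh7 Mix-Embed and 436 and 464 CPM in Huh7 2D. The Huh7 groups overlapped with 2D, with log2 fold changes of -0.03 ± 0.05 (SE) and 0.03 ± 0.05. In HLF, ATF4 was 251 and 264 CPM in Inject-Embed, 242 and 239 CPM in Mix-Embed and 299 and 292 CPM in 2D. Both Matrigel groups lay below 2D, by a log2 fold change of -0.20 ± 0.05 in Inject-Embed (adjusted p = 0.00143) and -0.30 ± 0.05 in Mix-Embed (adjusted p = 1.43e-06). Without HLF Inject-Embed replicate 1 the Inject-Embed difference was -0.16 and did not pass (adjusted p = 0.0793).

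TRIB3 encodes a pseudokinase that ATF4 induces and that acts back on it. It stood at 21 and 20.1 CPM in Huh7 Inject-Embed, 37.1 and 42.2 CPM in Huh7 Mix-Embed and 50.7 and 51.3 CPM in Huh7 2D. In HLF, TRIB3 stood at 25 and 28.7 CPM in Inject-Embed, 27.6 and 28 CPM in Mix-Embed and 47.5 and 41 CPM in 2D. All 8 Matrigel libraries lay below the 2D libraries of their line, and in Huh7 the 3 cultures did not overlap. The log2 fold changes over 2D were -1.31 ± 0.10 (adjusted p = 6.07e-14) and -0.37 ± 0.09 (adjusted p = 0.00297) in Huh7 Inject-Embed and Mix-Embed. In HLF they were -0.72 ± 0.10 (adjusted p = 1.61e-07) and -0.67 ± 0.10 (adjusted p = 3.39e-07). The Huh7 Mix-Embed difference was -0.27 and did not pass without Huh7 Mix-Embed replicate 1 (adjusted p = 0.123).

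ATF3, a stress-induced factor that binds related sites, was the other regulator with a large fall in both lines. It had 4.39 and 4 CPM in Huh7 Inject-Embed, 5.92 and 6.15 CPM in Huh7 Mix-Embed and 8.46 and 6.19 CPM in Huh7 2D, and it fell in Inject-Embed (log2 fold change -0.80 ± 0.19, adjusted p = 0.000962). The Mix-Embed difference was -0.28 ± 0.18 and did not pass. Without Huh7 2D replicate 1, the higher of the 2D pair, the Inject-Embed difference was -0.56 and did not pass (adjusted p = 0.076). In HLF, ATF3 had 27.6 and 27.2 CPM in Inject-Embed, 23.1 and 20 CPM in Mix-Embed and 46.8 and 45 CPM in 2D. Both HLF Matrigel groups lay well below 2D, by -0.75 ± 0.11 (adjusted p = 1.39e-06) and -1.10 ± 0.11 (adjusted p = 1.48e-10).

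DDIT3, which encodes the pro-apoptotic factor CHOP, was low throughout. It had 9.16 and 5.95 CPM in Huh7 Inject-Embed, 10.5 and 9.34 CPM in Huh7 Mix-Embed and 11.6 and 10.9 CPM in Huh7 2D. In HLF, DDIT3 had 7.78 and 8.78 CPM in Inject-Embed, 10.2 and 9.38 CPM in Mix-Embed and 14 and 11.2 CPM in 2D. Every Matrigel library was below the 2D libraries of its line. It fell in Huh7 Inject-Embed (-0.56 ± 0.18, adjusted p = 0.0137) and HLF Inject-Embed (-0.61 ± 0.17, adjusted p = 0.00735), while the Mix-Embed values were -0.18 ± 0.17 in Huh7 and -0.37 ± 0.16 in HLF and did not pass. The Huh7 call was lost without Inject-Embed replicate 2 (-0.29, adjusted p = 0.349) or 2D replicate 1 (-0.52, adjusted p = 0.073), and the HLF call without Inject-Embed replicate 1 (-0.52, adjusted p = 0.101) or 2D replicate 1 (-0.44, adjusted p = 0.193). DESeq2 called neither (adjusted p = 0.0681 in Huh7 and 0.0626 in HLF). DDIT3 lies opposite the methionyl-tRNA synthetase gene MARS, which had 3069 to 4384 counts where DDIT3 had 70 to 226. The strand setting of the counting is not given in the sources used here, so reads of such overlapping genes cannot be told apart; ATF5, opposite NUP62 (1462 to 2343 counts), has the same limit.

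ATF5, a close relative of ATF4, rose in Huh7 Inject-Embed, to 25.7 and 24.5 CPM, and had 14.7 and 15.6 CPM in Huh7 Mix-Embed and 14.9 and 12.5 CPM in Huh7 2D. The Inject-Embed pair lay above the other 4 Huh7 libraries (log2 fold change 0.87 ± 0.14, adjusted p = 1.55e-06). In HLF, ATF5 had 18.8 and 23.3 CPM in Inject-Embed, 19.1 and 20.9 CPM in Mix-Embed and 28.2 and 22.6 CPM in 2D. It fell in HLF Mix-Embed (-0.35 ± 0.13, adjusted p = 0.0317), a call lost without Mix-Embed replicate 1 (-0.27), Mix-Embed replicate 2 (-0.41) or 2D replicate 1 (-0.18), where the adjusted p was 0.234, 0.0613 and 0.484. CEBPG, a partner of ATF4, fell in HLF Inject-Embed (-0.31 ± 0.07, adjusted p = 0.00049) and Mix-Embed (-0.42 ± 0.07, adjusted p = 2.03e-06). CEBPB, a second partner, was lower in Huh7 Inject-Embed (-0.25), HLF Inject-Embed (-0.40) and HLF Mix-Embed (-0.37). All 3 of its calls were lost without at least 1 library: without Huh7 Inject-Embed replicate 1 (-0.27), replicate 2 (-0.22) or Huh7 2D replicate 2 (-0.11); without HLF Inject-Embed replicate 1 (-0.34) or HLF 2D replicate 2 (-0.32); and without HLF Mix-Embed replicate 1 (-0.21) or HLF 2D replicate 2 (-0.28).

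The other regulators are NUPR1, with few reads in Huh7, and JDP2, with few reads in HLF. NUPR1, a stress-induced chromatin protein, had 18 and 11 counts in Huh7 Inject-Embed, 8 and 11 counts in Huh7 Mix-Embed and 7 and 3 counts in Huh7 2D. It rose in Huh7 Inject-Embed (1.76 ± 0.56, adjusted p = 0.0128), and the call was lost without Inject-Embed replicate 1 (1.46, adjusted p = 0.143) or 2D replicate 2 (1.30, adjusted p = 0.137). In HLF, NUPR1 had 2.59 and 3.7 CPM in Inject-Embed, 3.83 and 5.46 CPM in Mix-Embed and 2.73 and 2.77 CPM in 2D, and did not pass. JDP2, a repressor that binds the same family of sites, had 2 and 5 counts in HLF Inject-Embed, 8 and 10 counts in HLF Mix-Embed and 18 and 19 counts in HLF 2D. It fell in HLF Inject-Embed (-2.33 ± 0.56, adjusted p = 0.00189), which did not pass without Inject-Embed replicate 1 (-1.85, adjusted p = 0.0527). In Huh7 it had 8.85 and 9.95 CPM in Inject-Embed, 7.24 and 6.61 CPM in Mix-Embed and 6 and 10.5 CPM in 2D, which overlapped.

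The enzymes that make serine and glycine and load one-carbon units were mostly lower in HLF from Matrigel and moved less evenly in Huh7. In HLF, 4 of the 6 were lower in Inject-Embed and 5 of the 6 in Mix-Embed, and 0 were higher. In Huh7, 1 was higher and 3 lower in Inject-Embed, and 0 were higher and 0 lower in Mix-Embed. Of all tested genes, 9.09% were higher and 8.86% lower in HLF Inject-Embed, and 14.4% higher and 14.6% lower in HLF Mix-Embed. The Huh7 shares were 13.2% higher and 16.7% lower in Inject-Embed, and 11.2% higher and 10.6% lower in Mix-Embed. The 1 higher gene of 6 in Huh7 Inject-Embed was near the share of all genes. PSAT1, the aminotransferase of serine synthesis, had 87.4 and 86.3 CPM in HLF Inject-Embed, 68.3 and 68.6 CPM in HLF Mix-Embed and 133 and 132 CPM in HLF 2D. The 3 HLF cultures did not overlap, and PSAT1 in Matrigel was 65.5% and 51.7% of its 2D level (log2 fold change -0.61 ± 0.05, adjusted p = 3.36e-12, and -0.95 ± 0.06, adjusted p = 2.44e-18). In Huh7 it had 314 and 323 CPM in Inject-Embed, 288 and 291 CPM in Mix-Embed and 295 and 280 CPM in 2D. It rose slightly in Huh7 Inject-Embed (0.15 ± 0.05, adjusted p = 0.0163), which did not pass without Inject-Embed replicate 2 (0.13, adjusted p = 0.115) or 2D replicate 2 (0.11, adjusted p = 0.139).

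MTHFD2, a mitochondrial folate enzyme, had 35.5 and 41.5 CPM in HLF Inject-Embed, 35.8 and 29.3 CPM in HLF Mix-Embed and 59.3 and 62.9 CPM in HLF 2D. Both Matrigel groups were below 2D, by -0.67 ± 0.09 (adjusted p = 6.32e-08) and -0.91 ± 0.09 (adjusted p = 1.64e-11). In Huh7 it had 64.2 and 72.4 CPM in Inject-Embed, 71.2 and 72.4 CPM in Mix-Embed and 70.4 and 65.9 CPM in 2D, and the Inject-Embed and 2D libraries overlapped. The pseudogene MTHFD2P1 had 0 to 180 counts where MTHFD2 had 494 to 1057, so reads may be split between them. SHMT2, which moves a carbon from serine to folate, fell in HLF Inject-Embed (-0.34 ± 0.06, adjusted p = 1.14e-05) and Mix-Embed (-0.64 ± 0.06, adjusted p = 2.11e-12). PHGDH, the first enzyme of serine synthesis, fell in HLF Inject-Embed (-0.33 ± 0.05) and Mix-Embed (-0.49 ± 0.05), with adjusted p of 3.02e-06 and 2.46e-10. In Huh7 Inject-Embed both were -0.14 ± 0.05 and passed (adjusted p = 0.0274 for SHMT2 and 0.0305 for PHGDH), and neither call held without Inject-Embed replicate 2 (-0.11 and -0.06) or without 2D replicate 2 (-0.08 and -0.13); PHGDH also missed without 2D replicate 1 (-0.15, adjusted p = 0.053). With library totals alone both were -0.11 and missed (adjusted p = 0.103 for SHMT2 and 0.109 for PHGDH).

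PSPH, the phosphatase that completes serine synthesis, was lower in HLF Mix-Embed (-0.19 ± 0.06, adjusted p = 0.0184), and this call was lost without HLF Mix-Embed replicate 1 (-0.14) or without either HLF 2D replicate (-0.16 and -0.20). Its near copy PSPHP1 had 93 to 480 counts where PSPH had 867 to 2837, so reads may be split between them. ALDH1L2, a mitochondrial folate dehydrogenase, fell in Huh7 Inject-Embed to 30.5 CPM against 43.1 CPM in Huh7 2D (-0.50 ± 0.11, adjusted p = 0.000516). This call did not hold in every alternative scaling, filter or method. ALDH1L2 lies opposite C12orf45 (278 to 586 counts), so the limit given for overlapping genes holds here too. In HLF, ALDH1L2 had 6 to 13 counts a library.

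Of the asparagine, proline and transsulfuration enzymes, only CBS passed in any comparison with 2D. ASNS, the asparagine synthetase and a textbook ATF4 target, was scarce in both lines. It had 3.18 and 3.91 CPM in Huh7 Inject-Embed, 3.9 and 4.36 CPM in Huh7 Mix-Embed and 3.2 and 4.11 CPM in Huh7 2D, which overlapped. In HLF, ASNS had 0.908 and 0.314 CPM in Inject-Embed, 0.273 and 0.891 CPM in Mix-Embed and 1.12 and 1.64 CPM in 2D. The HLF Matrigel libraries were below 2D but on 4 to 26 counts, and neither difference passed (-1.17 ± 0.48, adjusted p = 0.0878, and -1.19 ± 0.48, adjusted p = 0.0584). By deposited FPKM, which corrects for length, ASNS ranked 32 of the 34 genes in Huh7 2D and 29 in HLF 2D. The counts of its pseudogene ASNSP1 ran from 6 to 42, so that part of the ASNS reads may be counted there. AC079781.5, which overlaps ASNS on the same strand, had 0 to 28 counts where ASNS had 4 to 61. How reads shared by both genes were counted is not given, so the low level of ASNS may partly reflect the counting, which was not tested.

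PYCR1, the mitochondrial enzyme that completes proline synthesis, had 172 and 153 CPM in Huh7 Inject-Embed, 181 and 188 CPM in Huh7 Mix-Embed and 167 and 189 CPM in Huh7 2D. In HLF, PYCR1 had 2 and 2 counts in Inject-Embed, 1 and 0 counts in Mix-Embed and 1 and 0 counts in 2D. It was therefore nearly undetected in each HLF library, where 3 counts correspond to 0.178 to 0.255 CPM over the 12 libraries, and no HLF fold between cultures is given. CTH, which makes cysteine from cystathionine, did not pass in any of the 4 comparisons (-0.36 ± 0.17 and -0.19 ± 0.16 in Huh7 Inject-Embed and Mix-Embed, -0.10 ± 0.18 and -0.18 ± 0.18 in HLF). CBS, which makes cystathionine, passed in HLF Inject-Embed (-0.79 ± 0.19, adjusted p = 0.00194), but its libraries overlapped, with 22.2 and 11.5 CPM in HLF Inject-Embed against 18.3 and 39.9 CPM in HLF 2D. Without HLF 2D replicate 2 the CBS difference was -0.11 (adjusted p = 0.803) and without HLF Inject-Embed replicate 2 it was -0.38 (adjusted p = 0.217). DESeq2 did not call it (adjusted p = 0.221). The copy CBSL had 3 to 44 counts where CBS had 184 to 1362, so reads may be split between them.

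Among the transporters, SLC7A5 showed the largest fall of the 33 tested genes in HLF Mix-Embed. It encodes the light chain of the leucine and tryptophan exchanger LAT1. In HLF, SLC7A5 had 76.8 and 71.8 CPM in Inject-Embed, 52.3 and 56.3 CPM in Mix-Embed and 200 and 210 CPM in 2D. The 3 HLF cultures did not overlap, and SLC7A5 was at 36.2% and 26.5% of its 2D level in Inject-Embed and Mix-Embed (log2 fold change -1.46 ± 0.06, adjusted p = 3.78e-24, and -1.91 ± 0.06, adjusted p = 3.69e-28). In Huh7 it had 327 and 318 CPM in Inject-Embed, 213 and 215 CPM in Mix-Embed and 240 and 254 CPM in 2D. It rose in Huh7 Inject-Embed (0.39 ± 0.05, adjusted p = 7.15e-08) and fell in Huh7 Mix-Embed (-0.20 ± 0.05, adjusted p = 0.00306), again with no overlap between cultures.

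SLC3A2, the heavy chain that carries LAT1 to the surface, was higher than in 2D in both Huh7 Matrigel cultures (0.52 ± 0.05, adjusted p = 9.79e-11, in Inject-Embed and 0.22 ± 0.05, adjusted p = 0.00138, in Mix-Embed). In HLF, SLC3A2 was lower in both (-0.44 ± 0.06, adjusted p = 5.69e-08, and -0.32 ± 0.06, adjusted p = 1.67e-05). SLC7A1, the cationic transporter for arginine and lysine, had 92.3 and 94.8 CPM in Huh7 Inject-Embed, 108 and 104 CPM in Huh7 Mix-Embed and 126 and 125 CPM in Huh7 2D. In HLF, SLC7A1 had 128 and 124 CPM in Inject-Embed, 120 and 118 CPM in Mix-Embed and 210 and 206 CPM in 2D. All Matrigel libraries were below 2D in both lines, by -0.42 ± 0.06 (adjusted p = 1.1e-07) and -0.24 ± 0.06 (adjusted p = 0.00104) in Huh7 Inject-Embed and Mix-Embed and by -0.73 ± 0.05 (adjusted p = 1.31e-14) and -0.81 ± 0.05 (adjusted p = 2.5e-16) in HLF.

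SLC1A4, a transporter of alanine, serine and cysteine, fell in both HLF cultures (-0.57 ± 0.09 in each, adjusted p = 1.77e-06 in Inject-Embed and 1e-06 in Mix-Embed). SLC38A2, which takes up small neutral amino acids and is itself induced by their lack, fell in Huh7 Inject-Embed (-0.19 ± 0.05, adjusted p = 0.000727) and Mix-Embed (-0.30 ± 0.05, adjusted p = 1.24e-06), with -0.09 ± 0.04 and -0.11 ± 0.04 in HLF, which did not pass. SLC1A5, the glutamine transporter, was lower by small amounts in 3 comparisons: Huh7 Inject-Embed (-0.19), HLF Inject-Embed (-0.23) and HLF Mix-Embed (-0.17). Each of these calls was lost without 1 library: Huh7 Inject-Embed replicate 1 (-0.14), HLF Inject-Embed replicate 1 (-0.19), and HLF Mix-Embed replicate 1 (-0.08) or either HLF 2D replicate (-0.15 and -0.17). SLC6A9, a glycine transporter, did not pass in Huh7 and had 6 to 14 counts a library in HLF.

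**Figure D2:**
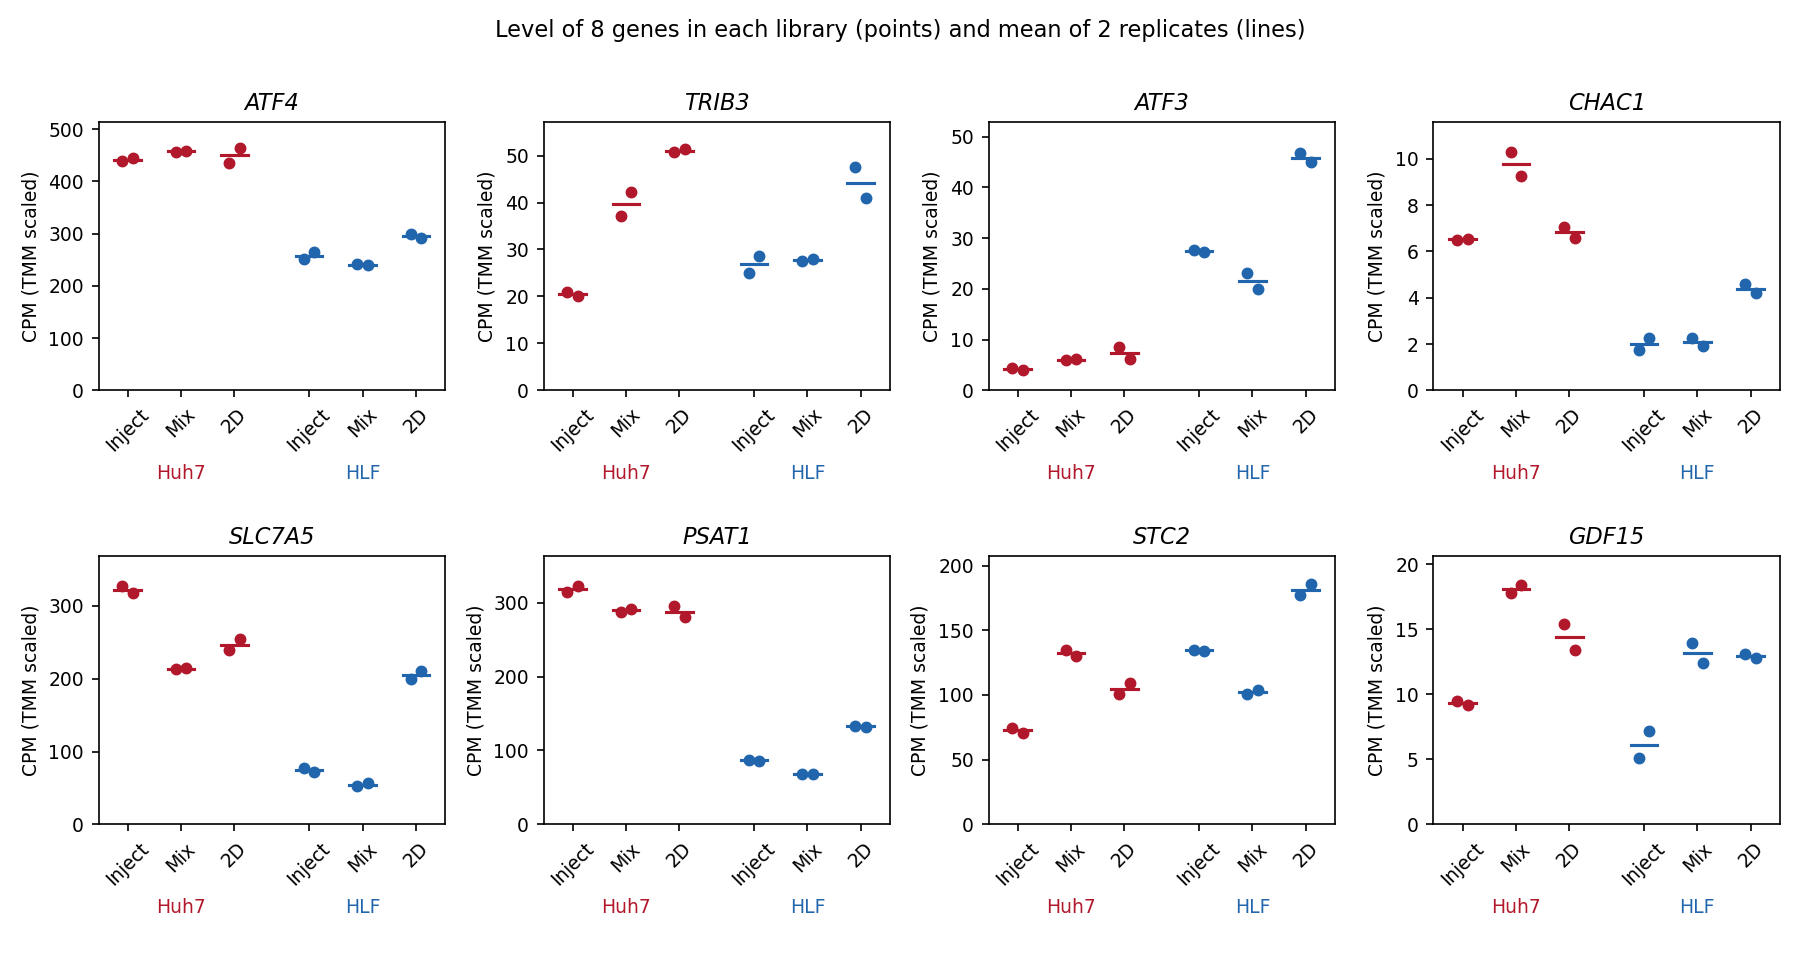
Level in CPM (vertical axis, from 0) of 8 genes in each library (points) with the mean of 2 replicates (line), Huh7 in red and HLF in blue. ATF4 differs little between cultures, TRIB3 is below 2D in every Matrigel library, and SLC7A5 and PSAT1 are far below 2D in HLF from Matrigel but not in Huh7.

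Of the 3 secreted factors, GDF15 and STC2 were tested and FGF21 was not. GDF15, a stress hormone of the TGF-beta family, had 9.46 and 9.18 CPM in Huh7 Inject-Embed, 17.8 and 18.4 CPM in Huh7 Mix-Embed and 15.4 and 13.4 CPM in Huh7 2D. In HLF, GDF15 had 5.12 and 7.15 CPM in Inject-Embed, 13.9 and 12.4 CPM in Mix-Embed and 13.1 and 12.8 CPM in 2D. In both lines Inject-Embed was lowest and did not overlap with 2D (-0.63 ± 0.16, adjusted p = 0.00163, in Huh7 and -1.08 ± 0.16, adjusted p = 1.68e-06, in HLF). Mix-Embed against 2D gave 0.33 ± 0.14 in Huh7 and 0.01 ± 0.15 in HLF and did not pass.

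STC2, a secreted glycoprotein of the stanniocalcin family, had 74.6 and 70.9 CPM in Huh7 Inject-Embed, 135 and 130 CPM in Huh7 Mix-Embed and 101 and 109 CPM in Huh7 2D. In HLF, STC2 had 135 and 134 CPM in Inject-Embed, 101 and 104 CPM in Mix-Embed and 177 and 186 CPM in 2D. No cultures of a line overlapped, and their order differed between the lines. STC2 fell in Huh7 Inject-Embed (-0.53 ± 0.06, adjusted p = 4.8e-09), HLF Inject-Embed (-0.43 ± 0.06, adjusted p = 6.69e-08) and HLF Mix-Embed (-0.83 ± 0.06, adjusted p = 8.8e-16), and rose in Huh7 Mix-Embed (0.34 ± 0.06, adjusted p = 2.31e-05). FGF21, the fasting hormone of liver, had 1 and 1 counts in Huh7 Mix-Embed and 3 and 2 counts in Huh7 2D. It had 0 counts in the other 8 libraries, where 3 counts correspond to 0.178 CPM or more.

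Of the other effectors, CHAC1, which degrades glutathione, had 6.51 and 6.55 CPM in Huh7 Inject-Embed, 10.3 and 9.26 CPM in Huh7 Mix-Embed and 7.06 and 6.6 CPM in Huh7 2D. In HLF, CHAC1 had 1.75 and 2.26 CPM in Inject-Embed, 2.25 and 1.9 CPM in Mix-Embed and 4.58 and 4.22 CPM in 2D. The HLF Matrigel libraries were at 45.5% and 47.2% of 2D with no overlap (-1.13 ± 0.25, adjusted p = 0.000688, and -1.09 ± 0.25, adjusted p = 0.000565). In Huh7 Mix-Embed CHAC1 rose (0.52 ± 0.19, adjusted p = 0.0457), but this call was lost without any 1 of the 4 libraries compared: without Mix-Embed replicate 1 (0.44, adjusted p = 0.26) or 2 (0.59, adjusted p = 0.0909), or 2D replicate 1 (0.57, adjusted p = 0.117) or 2 (0.47, adjusted p = 0.185). DESeq2 did not call it (adjusted p = 0.225). In Huh7 Inject-Embed it was -0.07 ± 0.20.

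XPOT, which exports tRNA from the nucleus, was lower in all 4 comparisons, by -0.25 ± 0.05 (adjusted p = 5.14e-05) and -0.38 ± 0.05 (adjusted p = 4.08e-08) in Huh7 Inject-Embed and Mix-Embed and by -0.20 ± 0.05 (adjusted p = 0.00277) and -0.26 ± 0.05 (adjusted p = 6.3e-05) in HLF. The HLF Inject-Embed call for XPOT was lost without Inject-Embed replicate 2 or 2D replicate 2 (-0.17 in each). VLDLR, a lipoprotein receptor, had 4.69 and 5.44 CPM in Huh7 Inject-Embed, 10.3 and 9.1 CPM in Huh7 Mix-Embed and 11.5 and 9.9 CPM in Huh7 2D. It fell in Huh7 Inject-Embed, where both libraries lay well below the rest (-1.08 ± 0.18, adjusted p = 6.65e-06). In HLF, VLDLR had 12.1 and 14.9 CPM in Inject-Embed, 17.1 and 14.6 CPM in Mix-Embed and 14.5 and 14.8 CPM in 2D, which overlapped. SESN2, an inhibitor of mTORC1, fell in HLF Inject-Embed (-0.63 ± 0.14, adjusted p = 0.000578), which did not pass without HLF Inject-Embed replicate 2 (-0.40, adjusted p = 0.104). EIF4EBP1, which represses cap-dependent translation, fell in HLF Mix-Embed (-0.39 ± 0.08, adjusted p = 0.000268).

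The Matrigel methods were also compared with each other. Mix-Embed wells received more cells than Inject-Embed wells in both lines, so method and seeded cell number cannot be told apart. In Huh7 Inject-Embed against Mix-Embed, 4 of the 33 genes were higher and 13 lower, where 9.55% of all tested genes were higher and 13.4% lower. STC2 (-0.86 ± 0.06, adjusted p = 6.16e-15), GDF15 (-0.96 ± 0.15, adjusted p = 4.84e-06), TRIB3 (-0.94 ± 0.11, adjusted p = 2.4e-09) and VLDLR (-0.94 ± 0.19, adjusted p = 0.000134) were lower in Inject-Embed. SLC7A5 (0.59 ± 0.05, adjusted p = 3.25e-12), ATF5 (0.73 ± 0.14, adjusted p = 5.25e-05) and SLC3A2 (0.29 ± 0.05, adjusted p = 2.68e-05) were higher. These 7 calls held in every alternative run, while the count of 17 fell to 9 without Inject-Embed replicate 2 or Mix-Embed replicate 2 and to 11 without Mix-Embed replicate 1. In HLF Inject-Embed against Mix-Embed, 4 were higher and 3 lower, where 3.56% of all tested genes were higher and 4.71% lower. GDF15 was lower in HLF Inject-Embed (-1.09 ± 0.16, adjusted p = 4.19e-06), as it was in Huh7, whereas STC2 was higher (0.39 ± 0.06, adjusted p = 3.9e-06). SLC7A5 (0.45 ± 0.06, adjusted p = 1.09e-06) and PSAT1 (0.34 ± 0.06, adjusted p = 3.19e-05) were also higher. The HLF count of 7 was 4 without Inject-Embed replicate 2.

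Before any change of culture, the lines differed in most of these genes. In Huh7 2D against HLF 2D, 21 genes were higher and 9 lower, where 38.1% of all tested genes were higher and 39.2% lower. All 4 of the asparagine, proline and transsulfuration enzymes and 5 of the 6 serine, glycine and one-carbon enzymes were higher in Huh7, while 4 of the 7 transporters were lower. PYCR1 had 5308 counts in the 2 Huh7 2D libraries together and 1 count in the 2 HLF 2D libraries, a ratio of 5691 per scaled library total with a 95% counting interval of 1021 to 224835, which covers counting error only. SLC6A9 had 968 counts in Huh7 2D and 14 in HLF 2D (log2 fold change 6.18 ± 0.23, adjusted p = 2.79e-27), and ALDH1L2 had 1287 in Huh7 2D and 26 in HLF 2D (5.72 ± 0.19, adjusted p = 1.51e-28). Both lie opposite other genes that were counted in the same libraries, CCDC24 with 68 to 334 counts and C12orf45 with 278 to 586. JDP2 was also higher in Huh7, at 8.25 CPM against 1.16 CPM in HLF (2.83 ± 0.29, adjusted p = 8.83e-12).

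The genes lowest in Huh7 2D relative to HLF 2D were NUPR1 (-3.01 ± 0.47, adjusted p = 2.24e-07), ATF3 (-2.65 ± 0.13, adjusted p = 4.33e-22), SLC1A4 (-1.52 ± 0.09, adjusted p = 7.09e-19) and SLC1A5 (-1.39 ± 0.06, adjusted p = 1.14e-25). ATF3 had 7.33 CPM in Huh7 2D and 45.9 CPM in HLF 2D. By deposited FPKM, ATF4 was at 167 ± 6.5 in Huh7 2D and 122 ± 2.0 in HLF 2D (SD, n = 2 each), ranking 1 and 2 of the 34 genes. SLC38A2 stood at 55.1 ± 1.4 FPKM in Huh7 2D and 128 ± 5.3 FPKM in HLF 2D, where it ranked first. Its HLF 2D libraries were at 132 and 124 FPKM and those of ATF4 at 124 and 121 FPKM, so the spread does not separate them. PSAT1 was second in Huh7 2D at 123 ± 5.0 FPKM and stood at 62.9 ± 0.18 FPKM in HLF 2D. TRIB3 was close between the lines, at 13.8 ± 0.067 FPKM in Huh7 2D and 13.4 ± 1.4 FPKM in HLF 2D. Its call as higher in Huh7 (0.20 ± 0.09, adjusted p = 0.0398) was lost without Huh7 2D replicate 1 (0.21) or 2 (0.19), without HLF 2D replicate 2 (0.06), with DESeq2 (adjusted p = 0.132) and with library totals alone (0.05). With library totals alone in place of TMM scaling, the median of all genes in this comparison moved to -0.18, so differences between the lines are relative to the scaling; no gene called here turned its direction under it.

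**Figure D3:**
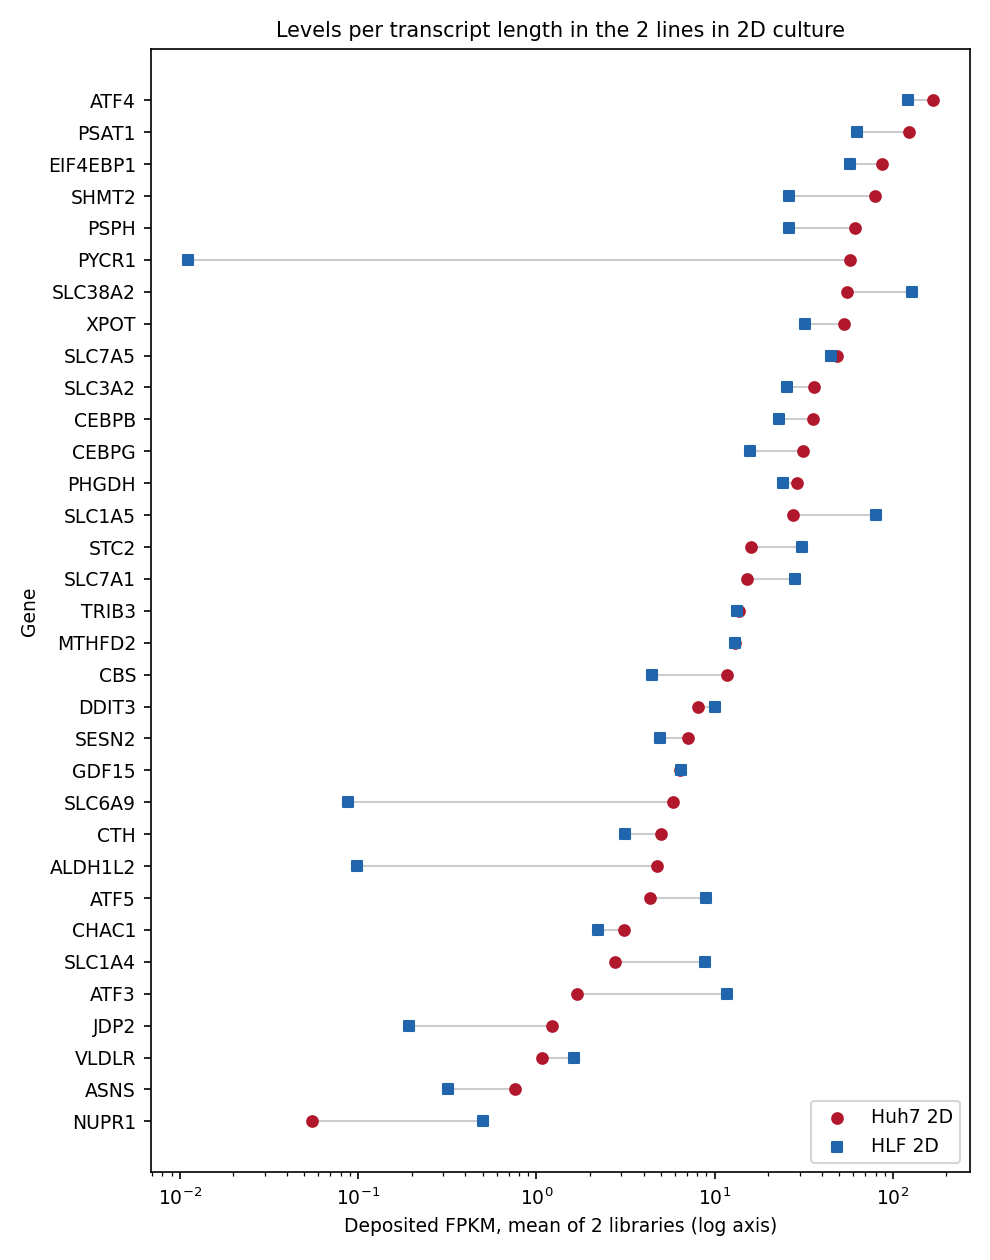
Deposited FPKM (horizontal log axis, mean of 2 libraries) of the 33 tested genes in Huh7 2D (red circles) and HLF 2D (blue squares), ordered by the Huh7 level. PYCR1, SLC6A9 and ALDH1L2 lie far lower in HLF, on 1, 14 and 26 counts in the 2 HLF 2D libraries together, and ATF3 lies far higher.

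Whether the lines differed in their change over 2D was tested as an interaction. For Inject-Embed against 2D, the log2 fold change was higher in Huh7 than in HLF for 14 of the 33 genes and lower for 2, where 11.7% of all tested genes were higher and 13.1% lower. For Mix-Embed against 2D it was higher for 16 and lower for 1, where 10.2% of all tested genes were higher and 10.2% lower. Of these calls, 9 of 16 for Inject-Embed and 13 of 17 for Mix-Embed held in all alternatives that kept every library. Some calls in both tests were also lost when a library was left out. The median difference of the 33 genes was 0.20 and 0.43 for Inject-Embed and Mix-Embed, while that of all tested genes was -0.04 for Inject-Embed. SLC7A5 differed by 1.85 ± 0.08 (adjusted p = 4.54e-23) for Inject-Embed and 1.71 ± 0.08 (adjusted p = 2.45e-21) for Mix-Embed. PSAT1 differed by 0.76 ± 0.07 (adjusted p = 2.57e-11) and 0.96 ± 0.07 (adjusted p = 5.33e-14), and MTHFD2 by 0.67 ± 0.12 (adjusted p = 2.34e-05) and 0.99 ± 0.12 (adjusted p = 1.5e-08). SLC3A2 differed by 0.96 ± 0.08 (adjusted p = 1.91e-13) and 0.54 ± 0.08 (adjusted p = 5.65e-07).

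The ATF4 difference was 0.17 ± 0.06 for Inject-Embed (adjusted p = 0.046) and 0.32 ± 0.06 for Mix-Embed (adjusted p = 0.000155), and the Inject-Embed call was lost without Huh7 Inject-Embed replicate 1 (0.18) or 2 (0.17), Huh7 2D replicate 1 (0.13), HLF Inject-Embed replicate 1 (0.16) or HLF 2D replicate 1 (0.16). TRIB3 (-0.59 ± 0.14, adjusted p = 0.00144) and VLDLR (-0.97 ± 0.23, adjusted p = 0.00132) fell more in Huh7 than in HLF with Inject-Embed. SLC38A2 was the 1 gene lower in the Mix-Embed test (-0.19 ± 0.06, adjusted p = 0.0202), which did not pass without Huh7 Mix-Embed replicate 2, HLF Mix-Embed replicate 1 or HLF 2D replicate 2 (-0.17 in each). For Inject-Embed against Mix-Embed, 2 genes were higher and 8 lower, where 4.62% of all tested genes were higher and 5.95% lower. STC2 (-1.26 ± 0.09, adjusted p = 2.29e-15) and TRIB3 (-0.89 ± 0.15, adjusted p = 2.11e-05) were among the 8, and both held in every alternative run. That count of 10 was 6 without Huh7 Inject-Embed replicate 1 or 2 and 5 without HLF Mix-Embed replicate 2.

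**Figure D4:**
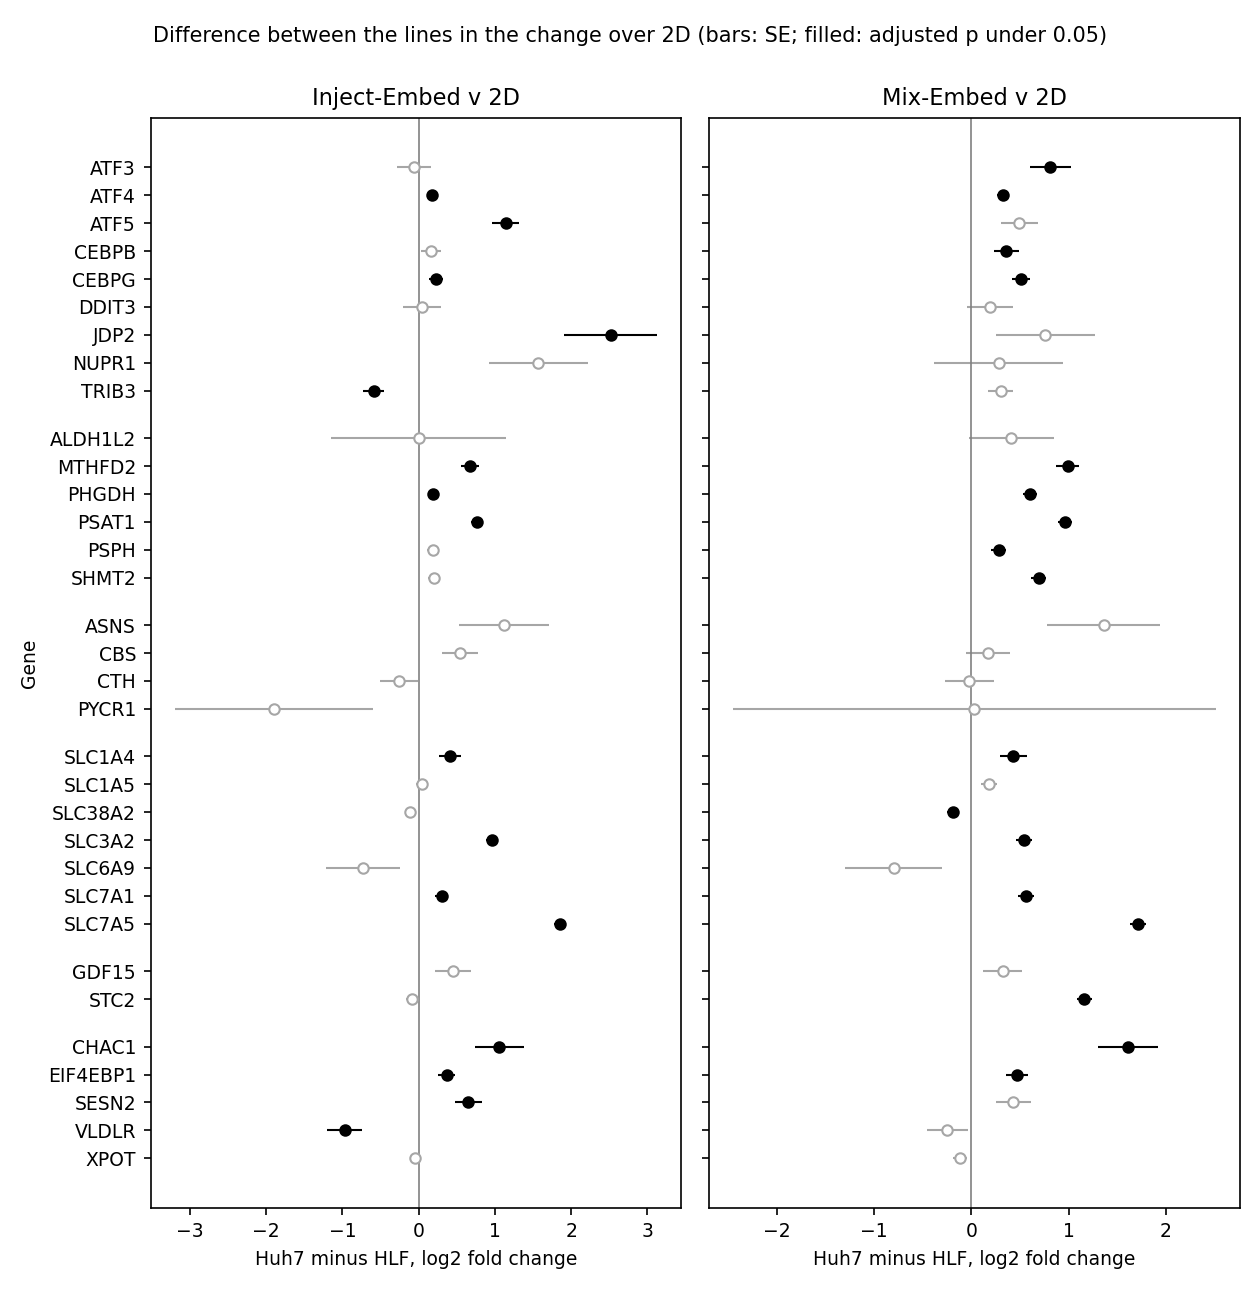
Difference between the lines, Huh7 minus HLF, in the log2 fold change over 2D of each tested gene (points, bars are SE) for Inject-Embed and Mix-Embed; filled points have an adjusted p under 0.05. Most filled points lie above 0, 14 of 16 for Inject-Embed and 16 of 17 for Mix-Embed, with SLC7A5 at 1.85 and 1.71.

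The cytosolic aminoacyl-tRNA synthetases, which charge tRNA and many of which ATF4 induces, were mostly lower in HLF from Matrigel. Of the 20 synthetase genes, 13 were lower and 1 higher in HLF Inject-Embed against 2D, and 18 were lower and 1 higher in HLF Mix-Embed against 2D. Of all tested genes, 8.86% were lower and 9.09% higher in HLF Inject-Embed, and 14.6% lower and 14.4% higher in HLF Mix-Embed. The falls were small, with log2 fold changes between -0.43 and -0.19 in Inject-Embed and between -0.72 and -0.22 in Mix-Embed. The median of the 20 was -0.21 and -0.33, against 0.00 for all tested genes in each. GARS1 (glycyl), YARS1 (tyrosyl) and VARS1 (valyl) had the smallest adjusted p in both: in HLF Mix-Embed GARS1 was at 129 CPM against 212 CPM in 2D (-0.72 ± 0.05, adjusted p = 1.4e-14), YARS1 at 148 CPM against 217 CPM (-0.55 ± 0.05, adjusted p = 8.72e-12) and VARS1 at 220 CPM against 312 CPM (-0.51 ± 0.05, adjusted p = 3.31e-11). Without HLF Inject-Embed replicate 2 the count of lower genes in Inject-Embed was 9, and in Mix-Embed it was between 15 and 18 in every alternative.

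In Huh7 the synthetases moved otherwise. In Inject-Embed against 2D, 9 were higher and 3 lower, led by VARS1 (256 CPM against 194 CPM, 0.40 ± 0.05, adjusted p = 3.17e-08), WARS1 (0.53 ± 0.07, adjusted p = 8.49e-08) and FARSA (0.42 ± 0.06, adjusted p = 1.08e-07). In Huh7 Mix-Embed against 2D, 1 was higher and 8 lower, with HARS1 (-0.37 ± 0.07, adjusted p = 0.000166), IARS1 (-0.24 ± 0.05, adjusted p = 0.000213) and YARS1 (-0.24 ± 0.05, adjusted p = 0.000553) first. Of all tested genes, 13.2% were higher and 16.7% lower in Huh7 Inject-Embed, and 11.2% higher and 10.6% lower in Huh7 Mix-Embed. The difference between the lines was higher in Huh7 for 15 of the 20 and lower for 1 in Inject-Embed, and higher for 12 and lower for 0 in Mix-Embed, where 11.7% and 13.1% of all tested genes were higher and lower for Inject-Embed and 10.2% each way for Mix-Embed. In Inject-Embed against Mix-Embed, 15 were higher and 2 lower in Huh7 (9.55% and 13.4% of all tested genes), and 7 were higher and 0 lower in HLF (3.56% and 4.71%). The count of 8 lower in Huh7 Mix-Embed was 5 without Mix-Embed replicate 1, and the 7 in HLF was 3 without Inject-Embed replicate 1.

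RefSeq promoter windows were found for 16 of the 20 synthetases, and 6 of them (37.5%) held the letters TGATGNAA on either strand. Those 6 are shown as 30 bases around the match, so that their letters can be set beside those of ASNS and CHAC1.
AARS1: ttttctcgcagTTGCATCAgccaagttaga
CARS1: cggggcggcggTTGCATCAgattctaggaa
IARS1: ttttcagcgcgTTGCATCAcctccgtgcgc
MARS1: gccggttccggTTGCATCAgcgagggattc
NARS1: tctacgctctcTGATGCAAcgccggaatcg
TARS1: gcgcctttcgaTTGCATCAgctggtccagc
They lie at chr16:70289675-70289704, chr11:3057407-3057436, chr9:92293692-92293721, chr12:57488053-57488082, chr18:57621804-57621833 and chr5:33440956-33440985 (GRCh38.p14), on the plus strand for MARS1 and TARS1 and on the minus strand for the others. All 6 matches hold the same 8 letters, TGATGCAA or their reverse complement, as does the CHAC1 match above. In HLF, 5 of these 6 genes were lower in Inject-Embed and 6 in Mix-Embed, where 13 and 18 of all 20 synthetases were lower. In Huh7 Inject-Embed 2 of the 6 were higher and 1 lower, where 9 of the 20 were higher and 3 lower. In Huh7 Mix-Embed 0 of the 6 were higher and 3 lower, where 1 of the 20 was higher and 8 lower.

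**Figure D5:**
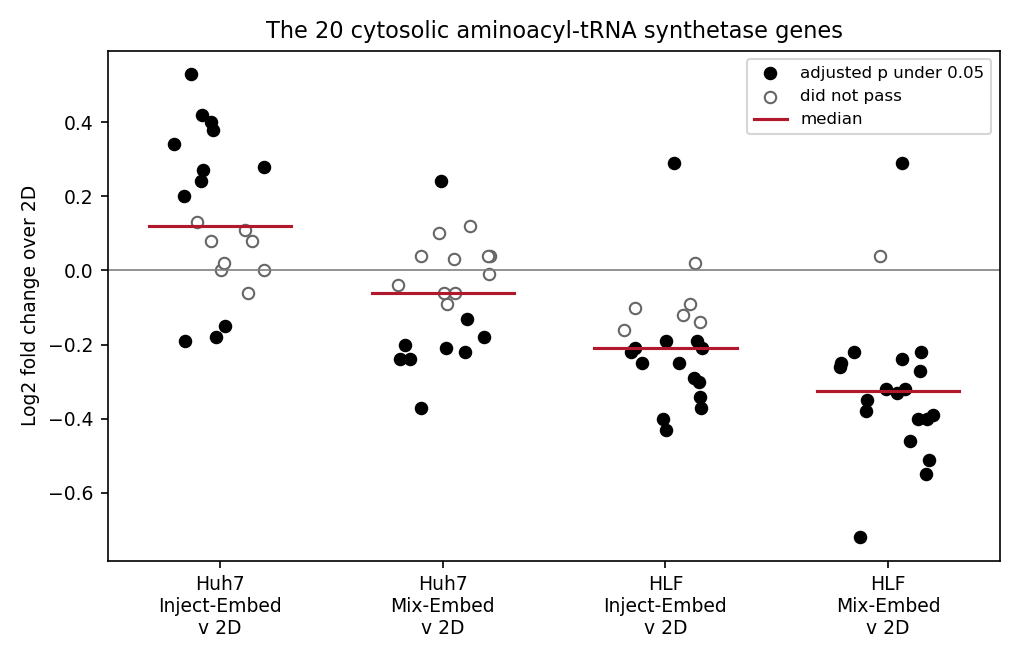
Log2 fold change over 2D (vertical axis) of the 20 cytosolic synthetase genes in the 4 comparisons; filled points have an adjusted p under 0.05 and red lines are medians. The medians are 0.12 and -0.06 in Huh7 Inject-Embed and Mix-Embed and -0.21 and -0.33 in HLF.

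A further list of 20 ATF4 targets, 5 of them synthetases, held 3 higher and 12 lower genes in HLF Inject-Embed against 2D and 5 higher and 11 lower in HLF Mix-Embed. SLC7A11 and SLC38A1 also belong to the list of other amino acid transporters below, and MTHFD1L to that of folate enzymes. Each was lower in both HLF comparisons and is counted in both of its lists. The shares of all tested genes were 9.09% higher and 8.86% lower in HLF Inject-Embed and 14.4% higher and 14.6% lower in HLF Mix-Embed. SLC7A11, the cystine exchanger, fell most by adjusted p (-1.07 ± 0.09, adjusted p = 1.34e-12, and -1.31 ± 0.09, adjusted p = 3.15e-15), while DDIT4, a stress-induced inhibitor of mTORC1, rose (0.98 ± 0.09, adjusted p = 3.24e-11, and 1.04 ± 0.09, adjusted p = 2.88e-12). Also lower were SQSTM1, an autophagy receptor, in Inject-Embed (-0.36 ± 0.06, adjusted p = 4.19e-06) and AARS1 in Mix-Embed (-0.38 ± 0.04, adjusted p = 3.57e-09). In Huh7 the list held 5 higher and 9 lower in Inject-Embed, led by KLHL24 (-1.09 ± 0.10, adjusted p = 3.06e-12), TNFRSF10B (-0.58 ± 0.05, adjusted p = 3.39e-12) and SLC38A1 (-0.44 ± 0.05, adjusted p = 1.36e-09). In Huh7 Mix-Embed it held 4 higher and 7 lower, led by DDIT4 (0.97 ± 0.08, adjusted p = 6.87e-13), PCK2 (0.71 ± 0.06, adjusted p = 7.45e-12) and SLC38A1 (-0.50 ± 0.05, adjusted p = 1.09e-10). The Huh7 shares of all tested genes were 13.2% higher and 16.7% lower in Inject-Embed and 11.2% higher and 10.6% lower in Mix-Embed.

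The machinery upstream of ATF4 translation moved less evenly. Of 18 genes of eIF2 kinases, phosphatases, eIF2 and eIF2B, 3 were higher and 4 lower in HLF Inject-Embed and 3 higher and 7 lower in HLF Mix-Embed. With 9.09% and 14.4% of all tested genes higher and 8.86% and 14.6% lower in these comparisons, the 3 higher genes of 18 in Mix-Embed were near the share of all genes. GCN1, the activator of GCN2, fell in HLF Inject-Embed (-0.40 ± 0.04, adjusted p = 1.22e-09), and EIF2AK2, the kinase PKR, rose in HLF Mix-Embed to 211 CPM against 129 CPM in 2D (0.71 ± 0.06, adjusted p = 9.91e-14). In Huh7, 8 were higher and 3 lower in Inject-Embed, with EIF2S1, the eIF2 alpha subunit, first (0.40 ± 0.06, adjusted p = 2.6e-07), and 2 were higher and 2 lower in Mix-Embed, near the 11.2% higher and 10.6% lower of all tested genes there. In Huh7 Inject-Embed 13.2% of all tested genes were higher and 16.7% lower. The other branches of the unfolded protein response, 16 genes of ATF6 and XBP1, were lower in Matrigel in both lines where they passed, apart from 2 that were higher in Huh7 Inject-Embed: 9 and 10 were lower in Huh7 Inject-Embed and Mix-Embed, and 6 and 5 in HLF, against the same shares of all tested genes. XBP1 itself fell in all 4 (-0.54 ± 0.04, -0.34 ± 0.04, -0.28 ± 0.05 and -0.38 ± 0.05 in Huh7 Inject-Embed, Huh7 Mix-Embed, HLF Inject-Embed and HLF Mix-Embed).

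Other enzymes of serine, glycine and folate metabolism, 15 of 16 tested, were mostly lower in HLF where they passed. In HLF Inject-Embed 1 was higher and 5 lower and in HLF Mix-Embed 1 was higher and 6 lower, with GLDC, the glycine decarboxylase, at -0.57 ± 0.09 (adjusted p = 3.01e-06) and -0.64 ± 0.09 (adjusted p = 1.79e-07) and MTHFD1, a cytosolic folate enzyme, at -0.30 ± 0.06 (adjusted p = 0.000156) and -0.51 ± 0.06 (adjusted p = 3.68e-09). In Huh7 2 were higher and 2 lower in Inject-Embed, and 0 higher and 2 lower in Mix-Embed. The Huh7 counts lie near or below the shares of all tested genes, 13.2% higher and 16.7% lower in Inject-Embed and 11.2% higher and 10.6% lower in Mix-Embed, while in HLF those shares were 9.09% and 8.86% in Inject-Embed and 14.4% and 14.6% in Mix-Embed. Of 20 other amino acid transporters tested, 3 were higher and 6 lower in HLF Inject-Embed and 2 higher and 4 lower in HLF Mix-Embed, of which the Mix-Embed counts are near those shares. In Huh7 3 were higher and 9 lower in Inject-Embed, among them SLC7A2, a cationic transporter, at 518 CPM against 1092 CPM in 2D (-1.08 ± 0.04, adjusted p = 1.6e-23). In Huh7 Mix-Embed 5 were higher and 9 lower. SLC6A8, the creatine transporter, moved opposite ways in Huh7, at 16.9 CPM in Inject-Embed (-1.80 ± 0.13, adjusted p = 1.31e-15) and 118 CPM in Mix-Embed (0.99 ± 0.10, adjusted p = 2.48e-10), against 59.7 CPM in 2D.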

How the data were processed

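Per the submitters' processing notes, FastQC, Trimmomatic, STAR 2.7.9a and featureCounts with GRCh38 were used, with no order or settings recorded. The strand setting and gene annotation are not stated in the sources used. Raw counts and FPKM per gene were deposited by the authors; the deposited FPKM equalled the count divided by gene length and library total to a relative 1.5e-08 over 167453 values with at least 20 counts. The 34 members, the pathway lists and the tests were chosen with earlier results of these data known. Counts were tested with edgeR 4.0.16 (R 4.3.3): TMM scaling, filterByExpr with a minimum count of 10, a mean for each of 6 groups, and quasi-likelihood tests adjusted (Benjamini-Hochberg) over 19342 genes at 0.05. The replicate coefficient of variation was 4.59%, with 6 residual degrees of freedom and a median of 36.3 prior degrees of freedom. The p-values and SE therefore lean more on the trend over all genes than on a gene's own replicates. CPM are counts over TMM-scaled totals, apart from the marker sums, which use unscaled totals. Log2 fold changes and their SE were computed from the deposited counts. Alternatives were DESeq2 1.42.0, limma 3.58.1 on log2(FPKM + 1) and log2(FPKM + 0.1), RLE scaling, library totals, no filter, the compared groups alone, a replicate block, and leaving out each library.

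Values in each library are given for ATF4, DDIT3, TRIB3, ASNS and CHAC1, and for members with an adjusted p under 0.05, a log2 fold change of at least 0.8 either way and replicates that did not overlap in at least 1 comparison within a line. For the lines in 2D the 4 highest and 4 lowest called members are named, for line differences those of at least 1, and for each pathway list up to 3 genes with the smallest adjusted p; other genes named were chosen after their values were seen. The code was tested on simulated data, and figures were drawn with matplotlib 3.10.9. Some results are not reported here.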

Additional observations from a re-analysis of the deposited data

Results flagged for a closer look

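A test of the difference between the lines passed, with a size of at least 1 on the log2 scale, for the following changes (Huh7 minus HLF). For Inject-Embed against 2D these were SLC7A5 (1.85, edgeR adjusted p = 4.54e-23), ATF5 (1.14, edgeR adjusted p = 3.89e-06), JDP2 (2.52, edgeR adjusted p = 0.00131) and CHAC1 (1.06, edgeR adjusted p = 0.0112). SLC7A5 and ATF5 were higher in Huh7 Inject-Embed than in 2D in 2 of 2 libraries, and SLC7A5 was lower in HLF in 2 of 2. JDP2 rested on 2 to 19 counts a library in HLF. The CHAC1 difference was 0.92 (adjusted p = 0.0675) without HLF Inject-Embed replicate 1.

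For Mix-Embed against 2D these were SLC7A5 (1.71, edgeR adjusted p = 2.45e-21), CHAC1 (1.61, edgeR adjusted p = 0.000115) and STC2 (1.16, edgeR adjusted p = 4.7e-15). For Inject-Embed against Mix-Embed it was STC2 (-1.26, edgeR adjusted p = 2.29e-15), which was lower in Inject-Embed in both Huh7 libraries and higher in both HLF libraries. Groups of 2 libraries were too small for a search for outlying samples.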

How the results depend on the processing

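With a replicate block, the numbers of members that passed were 20, 7, 22 and 20 for Huh7 Inject-Embed, Huh7 Mix-Embed, HLF Inject-Embed and HLF Mix-Embed against 2D (19, 8, 22 and 20 without it), 17 and 7 for Inject-Embed against Mix-Embed in Huh7 and HLF, 30 for the lines in 2D, and 16, 17 and 10 for the line differences. Deviations of libraries with the same number correlated between -0.19 and 0.17 across 10316 genes over 15 pairs of groups, 7 of them above 0. With 2 libraries a group, these values cannot settle whether libraries with the same number shared a culture day or batch.

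For HLF, over all alternatives, 17 to 24 members were lower in Inject-Embed against 2D and 0 higher, and 17 to 21 lower and 0 to 1 higher in Mix-Embed against 2D. The 1 higher gene was, without HLF 2D replicate 2, CBS (0.54 against -0.14 with all libraries). Leaving out 1 library gave 9 to 13 in place of 17 for Huh7 Inject-Embed against Mix-Embed, 4 to 7 in place of 7 for HLF, and 5 to 9 in place of 10 for the line difference of these methods, which was 6 with DESeq2 and 6 with limma on log2(FPKM + 0.1). Against 2D, the sign also turned for 3 values of ASNS and ATF4 that passed in no setting, and turns of other members are not counted here. ASNS in Huh7 Inject-Embed against 2D ranged from -0.21 to 0.15 when 1 library was left out, above 0 without Inject-Embed replicate 1 (0.10) and 2D replicate 2 (0.15). ATF4 there ranged from -0.07 to 0.02, and was 0.01 with library totals alone, 0.01 in both limma fits and 0.01 with the compared groups alone. ATF4 in Huh7 Mix-Embed against 2D ranged from -0.02 to 0.07. Of the calls against 2D, 10 of 19, 6 of 8, 14 of 22 and 16 of 20 held in every alternative in Huh7 Inject-Embed, Huh7 Mix-Embed, HLF Inject-Embed and HLF Mix-Embed. The cause of these differences was not tested. With 2 replicates, members with few counts (FGF21 in both lines, ASNS, PYCR1, SLC6A9, ALDH1L2 and JDP2 in HLF, NUPR1 in Huh7) are limited by depth.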
